A study of Mus musculus with 8 samples.

Results

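The genes described here encode 7 enzymes of haem synthesis: Alas1, Alad, Uros, Urod, Cpox, Ppox and Fech. They were chosen by gene symbol, and all 7 were found among the 13751 genes of the authors' normalised table and among the 57010 gene identifiers of the deposited count files. RNA was sequenced from wild-type C57BL/6 mouse CD4 T cells that had been sorted as naive cells from peripheral lymph nodes and cultured in medium with 10% FCS. Activation was the same in all cultures, 20 h on surfaces coated with anti-CD3 and anti-CD28, each at 4 µg/mL. The FAC group (n = 4) also received iron, whereas the control group (n = 4) did not; the labels give neither the iron dose nor a vehicle. Mice 1 to 4 each gave 1 FAC and 1 control culture.

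Haem is a ring of pyrroles that holds an iron atom, and it serves as the prosthetic group of cytochromes, catalase and many other proteins. Its synthesis starts in the mitochondrion, where Alas1 joins glycine and succinyl-CoA, continues in the cytosol and ends in the mitochondrion, where Fech inserts iron into protoporphyrin. Outside the red cell lineage Alas1 is regarded as the rate-limiting enzyme, and haem itself represses it, while erythroid cells use the separate isozyme Alas2. The 7 genes do not cover every step of the pathway.

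With FAC, 1 of the 7 genes passed the test and it was lower: Cpox, which oxidises coproporphyrinogen, fell by 12.7% in read count. Ppox, which encodes the next enzyme of the path, had 19.4% more reads on average with FAC and lay just outside the threshold (edgeR adjusted p = 0.056). With the mouse as a replicate block, since each mouse gave 1 culture of each kind, both Cpox and Ppox passed (edgeR adjusted p = 0.0243 and 0.0254), or 2 of 7 against 6.87% of all tested genes. The other 5 included the rate-limiting Alas1 and the iron-inserting Fech. They differed by at most 6.39% in read count between the group means and did not pass. The test was edgeR's quasi-likelihood test on all 13378 genes with enough counts, with Benjamini-Hochberg adjustment, and a gene was called at an adjusted p under 0.05. By this rule 3.27% of all tested genes were called, 2.18% higher and 1.1% lower, and the members' count is 1 gene of 7. At an unadjusted p under 0.05 the count was 2 of 7, Cpox and Ppox, against 18.4% of all tested genes.

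Promoter letters are shown in full for Cpox, the gene that was called, and as 1 example each for Alas1, Alad and Urod. Each of these held a match to the letters searched for, as did Uros, which is not shown. They are RefSeq sequences of the build GRCm38.p6, which is earlier than the build used for the counts, and 6 of the 7 genes had a window there. Fech was the other. The 250 bases before each annotated start were searched on both strands for CATGCGC, letters from the binding site of the nuclear respiratory factor Nrf1, for CACGTG, the E-box, and for AGATAA and TGATAA, which GATA factors bind. TGATAA stood once in Cpox and once in Uros, and CACGTG stood in Alad, Urod and Uros. CATGCGC stood in Alas1, on both strands in overlapping places, and AGATAA stood in none of these windows. The Ppox window held none of these letters. A gene can have more than 1 window, and the 6 genes had 9. Of these 9, 1 held CATGCGC, 4 held CACGTG, 0 held AGATAA and 2 held TGATAA. Over the 32851 windows in the table, 3.24% held CATGCGC, 6.02% held CACGTG, 9.99% held AGATAA and 7.94% held TGATAA. Capitals mark the match, and a match is a string of letters rather than a measured site. The first line is the whole Cpox stretch, at chr16:58669958-58670207 on the plus strand, with its match 86 bases before the start.
Cpox: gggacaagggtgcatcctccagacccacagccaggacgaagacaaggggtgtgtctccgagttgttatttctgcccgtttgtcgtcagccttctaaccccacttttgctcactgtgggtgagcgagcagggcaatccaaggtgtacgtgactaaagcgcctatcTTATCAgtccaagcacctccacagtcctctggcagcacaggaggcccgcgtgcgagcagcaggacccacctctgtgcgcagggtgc

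The next lines are 30-base excerpts around other matches, all on the minus strand. The Alas1 excerpt lies at chr9:106247907-106247936, with the match on the reverse strand marked, 195 bases before 1 of its annotated starts. The Alad excerpt lies at chr4:62519920-62519949 and the Urod excerpt at chr4:116994445-116994474, with matches 28 and 49 bases before a start.
Alas1: ccgcacccaagGCGCATGcgcggcggtcac
Alad: ccgccccgccccCACGTGggcttgcgcttt
Urod: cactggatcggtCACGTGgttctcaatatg

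Library totals were 25410299 to 32368404 counts with FAC and 25478740 to 37350654 counts in controls. Counts of the 7 genes ran from 293 to 1734 per library, for which counting error alone is 5.84% to 2.4%. Tfrc, the transferrin receptor gene, whose transcript is destabilised when cells hold ample iron, stood at 544 to 617 CPM with FAC and 958 to 1030 CPM in controls, so the libraries follow their labels in this gene. The 8 CD4 T cell markers summed to 2235 to 2293 CPM with FAC and 2168 to 2286 CPM in controls. Of 10 erythroid markers, 9 were matched, and they summed to 0.46 to 0.794 CPM with FAC and 0.872 to 4.42 CPM in controls. The 4 globin genes Hba-a1, Hba-a2, Hbb-bs and Hbb-bt were detected in control 3 and had 0 counts in the other 7 libraries, and Slc4a1 had 0 counts in all 8. Alas2 reached at most 0.191 CPM with FAC and 0.211 CPM in controls. The marker lists of myeloid and NK cells each summed to at most 0.528 CPM in any library, with Lyz2 and Ncr1 at 0 counts throughout, and the dendritic list to at most 3.59 CPM with FAC and 2.97 CPM in controls. Platelet markers summed to at most 1.03 CPM with FAC and 0.89 CPM in controls, with Pf4 and Ppbp at 0 counts. CD8 T cell markers summed to 6.26 to 8.99 CPM with FAC and 7.99 to 10.9 CPM in controls. In bulk RNA, fewer cells of a type and less RNA per cell cannot be told apart. Nothing in the labels separates culture from culture beyond the mouse number. The fit on the group alone sets a difference against the spread between cultures of a group, each from another mouse. With the replicate block, it is set against the spread that is left once mice are accounted for.

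The path opens with Alas1 (ENSMUSG00000032786, chromosome 9). It had 32.5, 36.5, 35.3 and 35.2 CPM in FAC mice 1 to 4, against 37.7, 36.9, 37.6 and 36.0 CPM in control mice 1 to 4. The FAC value was the lower in each of the 4 mice, but the groups overlapped, since FAC 2 stood above control 4. CPM here is the count scaled to library size on edgeR's TMM scale. Alas1 averaged 34.9 ± 1.70 CPM with FAC and 37.1 ± 0.753 CPM in controls (SD, n = 4 each), a log2 change of -0.09 (SE 0.05, 95% interval -0.20 to 0.02, edgeR adjusted p = 0.387). The largest difference was in mouse 1 (-0.21) and the smallest in mouse 2 (-0.02). The interval includes 0 and reaches down to -0.20, so a fall of up to that size in read count lies within it. With transcript length as an offset, described below for Cpox, the log2 change was larger. It was -0.16 (SE 0.07, edgeR adjusted p = 0.296), so the bound of -0.20 does not hold per length.

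Alad (ENSMUSG00000028393, chromosome 4), the zinc enzyme that joins aminolevulinate molecules into porphobilinogen, was the most abundant of the 7 per transcript length. Its libraries held 40.7, 45.3, 42.9 and 47.1 CPM in FAC mice 1 to 4, against 42.3, 45.3, 41.9 and 44.3 CPM in control mice 1 to 4. The FAC values enclosed all control values, and 2 of 4 mice were higher. The log2 change was 0.02 (SE 0.06, 95% interval -0.10 to 0.14, edgeR adjusted p = 0.905).

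Uros (ENSMUSG00000030979, chromosome 7) closes the linear tetrapyrrole into uroporphyrinogen III. It had 11.7, 11.5, 11.3 and 12.8 CPM in FAC mice 1 to 4, against 11.6, 10.9, 10.9 and 11.2 CPM in control mice 1 to 4. FAC was higher in 4 of 4 mice, by 0.01 to 0.20 on the log2 scale, and the groups overlapped at control 1. The log2 change was 0.09 (SE 0.08, 95% interval -0.08 to 0.26, edgeR adjusted p = 0.594), and this gene had the fewest reads of the 7. Its annotation overlaps Bccip on the opposite strand by 740 bases in GENCODE M21, whose log2 change was -0.10 (edgeR adjusted p = 0.269); the library kit kept strand, but the sources used here do not state whether the counting used it.

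Urod (ENSMUSG00000028684, chromosome 4) removes carboxyl groups from uroporphyrinogen to give coproporphyrinogen. It had 24.6, 26.9, 23.5 and 26.4 CPM in FAC mice 1 to 4, against 24.9, 25.8, 23.6 and 24.9 CPM in control mice 1 to 4. The FAC values again enclosed the control values, and 2 of 4 mice were higher. The log2 change was 0.03 (SE 0.06, 95% interval -0.10 to 0.16, edgeR adjusted p = 0.842).

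Cpox (ENSMUSG00000022742, chromosome 16) works in the space between the mitochondrial membranes, and its promoter stretch is the first printed above. Its libraries held 42.6, 41.9, 42.9 and 41.8 CPM in FAC mice 1 to 4, against 46.4, 47.2, 49.9 and 50.3 CPM in control mice 1 to 4. Every FAC library lay below every control library, and the FAC libraries stood close together, with a coefficient of variation of 1.29% against 4.03% in controls. Cpox averaged 42.3 ± 0.545 CPM with FAC and 48.4 ± 1.95 CPM in controls (SD, n = 4 each). The log2 change was -0.20 (SE 0.05, 95% interval -0.30 to -0.09, edgeR adjusted p = 0.0395), with FAC lower in 4 of 4 mice, by 0.12, 0.17, 0.22 and 0.27 in mice 1 to 4. Of the 7 genes, Cpox and Ppox had groups that did not overlap, against 11.1% of all tested genes, and 4 of 7 had the same direction in all mice, against 30.2%. Among the 438 called genes the median size of the change was 0.34, and 54 changed by less than Cpox. The Cpox call held without FAC 1 (edgeR adjusted p = 0.0493) and ended without any other library, at up to 0.122 without FAC 2. The share of all tested genes called was 4.06%, 1.24%, 1.08% and 4.03% without FAC 1, 2, 3 and 4, against 1.38%, 1.54%, 1.82% and 2.5% without control 1, 2, 3 and 4. Cpox also passed with RLE size factors (3.37% called) and with no filter on low counts (2.94% called). The change itself stayed between -0.22 and -0.18 in these 8 fits, and was -0.19 without control 3, the library with globin reads.

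**Figure D1:**
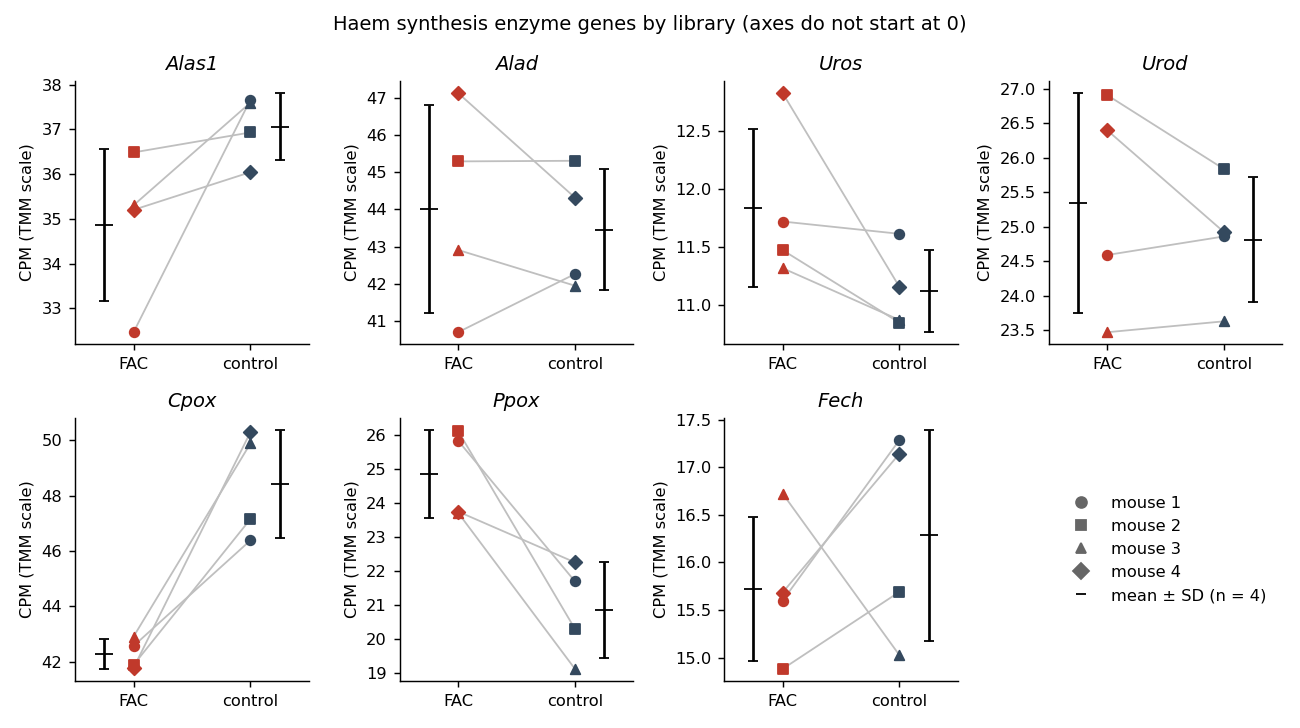
Each panel plots the CPM of 1 gene (y axis, on the TMM scale, not starting at 0) in FAC libraries on the left and control libraries on the right. Points are single libraries with a shape per mouse, grey lines join the cultures of a mouse, and black bars are the mean ± SD of 4. The Cpox and Ppox groups do not overlap, with Cpox at 41.8 to 42.9 CPM with FAC and 46.4 to 50.3 CPM in controls, while the groups of the other genes overlap.

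Per transcript length the fall of Cpox was smaller and did not pass, with means of 23.9 TPM with FAC and 25.1 TPM in controls. Cpox had 24.2, 23.7, 24.9 and 22.7 TPM in FAC mice 1 to 4, against 23.5, 23.0, 25.4 and 28.6 TPM in control mice 1 to 4. FAC was thus slightly higher in mice 1 and 2 and lower in mice 3 and 4, and the groups overlapped. TPM is not on the TMM scale, and all tested genes had a median log2 change of 0.03 in the log2(TPM + 1) test, against -0.00143 in edgeR. On the authors' normalised signal mouse 1 was still higher with FAC (1318 against 1306), but mouse 2 was lower (1286 against 1328). TPM divides reads by the effective length, which RSEM averages over the transcripts it assigns reads to, and 6 transcripts are listed for Cpox. That length was 2489, 2510, 2477 and 2594 bases in FAC mice 1 to 4, against 2747, 2769, 2750 and 2466 bases in control mice 1 to 4. It was shorter with FAC in mice 1, 2 and 3 and longer in mouse 4, so the groups overlapped. The groups' lengths also overlapped in the other 6 genes, and did not overlap in 3.31% of all tested genes. With the length as an offset in edgeR the log2 change of Cpox was -0.11 (SE 0.07, edgeR adjusted p = 0.463) in a fit that called 1.4% of all tested genes and 0 of the 7, and limma on log2(TPM + 1) gave -0.07 (adjusted p = 0.741; 1.08% called, against 1.03% with a pseudocount of 0.1 and 1.13% on the authors' normalised signal). How far the estimated lengths follow true transcripts cannot be read from gene-level files.

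**Figure D2:**
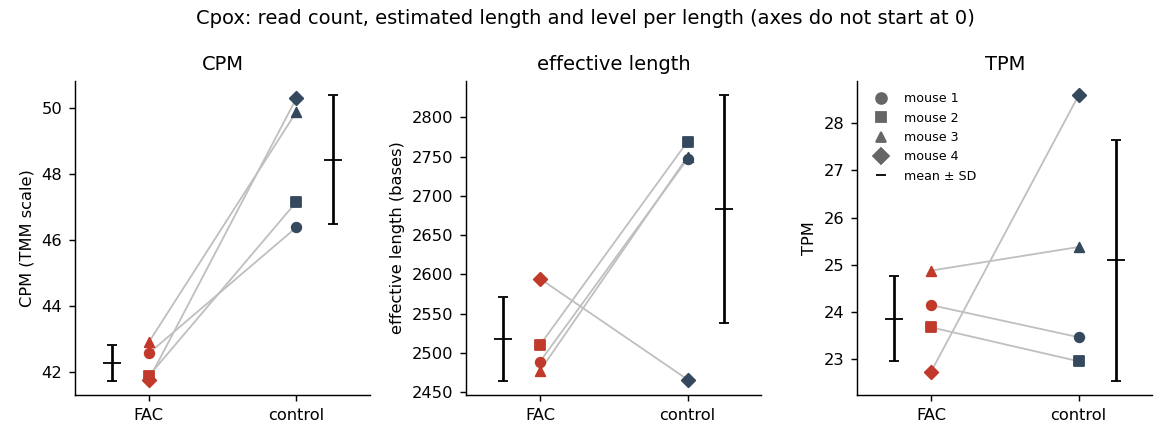
For Cpox, the left panel plots CPM, the middle panel RSEM's effective length in bases and the right panel TPM, each with FAC libraries left of control libraries (axes do not start at 0; points are libraries with a shape per mouse, black bars the mean ± SD of 4). CPM separates the groups, whereas the effective length of 2466 bases in control 4 lies below all FAC libraries and the TPM values overlap.

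Ppox (ENSMUSG00000062729, chromosome 1), an inner membrane enzyme, oxidises the product of Cpox to protoporphyrin. It had 25.8, 26.1, 23.7 and 23.7 CPM in FAC mice 1 to 4, against 21.7, 20.3, 19.1 and 22.2 CPM in control mice 1 to 4. Every FAC library lay above every control library. Ppox averaged 24.8 ± 1.302 CPM with FAC and 20.8 ± 1.41 CPM in controls (SD, n = 4 each), a log2 change of 0.26 (SE 0.07, 95% interval 0.11 to 0.40, edgeR adjusted p = 0.056). FAC was higher in 4 of 4 mice, by 0.25, 0.36, 0.31 and 0.09. With the mouse as a replicate block Ppox passed, at the same log2 change of 0.26 (SE 0.06, edgeR adjusted p = 0.0254), and Cpox passed as well (adjusted p = 0.0243), in a fit that called 6.87% of all tested genes. Ppox also passed in DESeq2 (adjusted p = 0.0195, 6.33% of genes called) and without FAC 4 (edgeR adjusted p = 0.0493).

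The Ppox groups were separate per length too, at 18.4, 18.0, 17.3 and 18.1 TPM in FAC mice 1 to 4, against 14.3, 14.7, 15.98 and 15.85 TPM in control mice 1 to 4. With the length offset the log2 change was 0.20 (SE 0.07, edgeR adjusted p = 0.191). Its effective length overlapped, at 1857 to 2055 bases with FAC and 1674 to 2102 bases in controls. The counts of Ppox are not whole numbers, as RSEM gives where it shares out reads that fit more than 1 place, and its annotation overlaps B4galt3 on the opposite strand by 907 bases. B4galt3 had 35.4 CPM with FAC and 33.9 CPM in controls (log2 change 0.06, edgeR adjusted p = 0.701).

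The ratio of Ppox to Cpox within a library needs no scaling between libraries. It was 0.607, 0.623, 0.553 and 0.568 in FAC mice 1 to 4, against 0.468, 0.430, 0.383 and 0.442 in control mice 1 to 4, in CPM. All 4 FAC libraries lay above all 4 control libraries; the pair was chosen after the values were seen, and so it has no test. In TPM the ratio was 0.762, 0.761, 0.697 and 0.794 with FAC, against 0.611, 0.640, 0.630 and 0.554 in controls, which again did not overlap.

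Fech (ENSMUSG00000024588, chromosome 18), whose enzyme inserts ferrous iron and in mammals carries an iron-sulphur cluster of its own, closes the path. It had 15.6, 14.9, 16.7 and 15.7 CPM in FAC mice 1 to 4, against 17.3, 15.7, 15.03 and 17.1 CPM in control mice 1 to 4. Mouse 3 was higher and the other mice lower, and the groups overlapped. The log2 change was -0.05 (SE 0.07, 95% interval -0.21 to 0.11, edgeR adjusted p = 0.775). Among the 6 genes that did not pass, the interval bound farthest from 0 was that of Ppox, at 0.40.

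**Figure D3:**
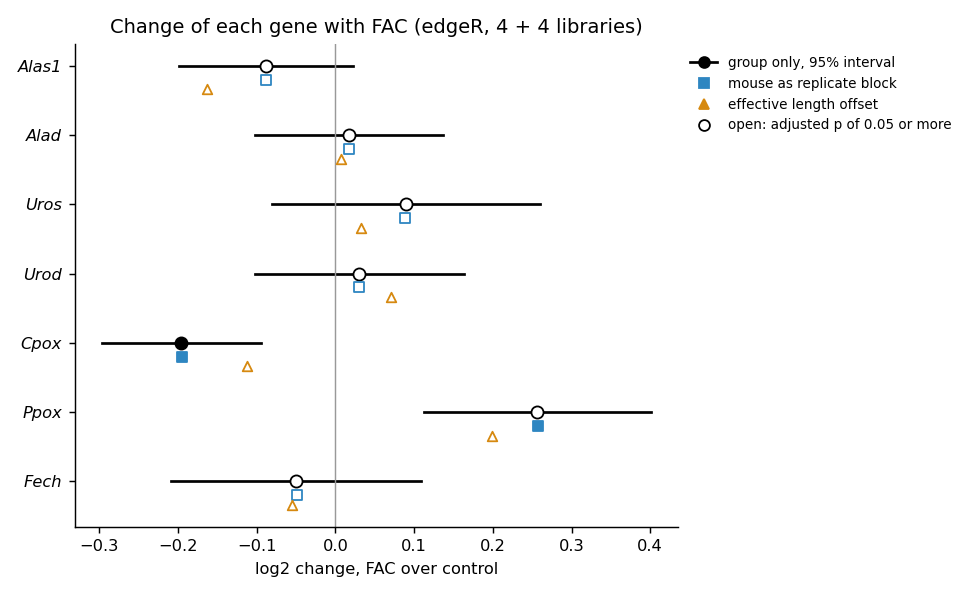
The x axis is the log2 change, FAC over control, and each row is 1 gene in the order of the path. Circles with lines are the fit on the group alone with its 95% interval, squares the fit with the mouse as a replicate block and triangles the fit with an effective length offset; filled symbols have an adjusted p under 0.05. Cpox lies at -0.20 and Ppox at 0.26, while the intervals of the other genes cross 0, and no triangle is filled.

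Across the 7 genes, 3 had a lower and 4 a higher fitted value with FAC, and the median log2 change was 0.02, against -0.00143 over all tested genes. The median size regardless of sign was 0.09 in both. Correlations between the genes were mixed in sign. Over the 8 libraries, which share mice and treatment, 12 of the 21 gene pairs had a positive Pearson correlation of log2 CPM and 9 a negative one, with a median of 0.05. The most alike pair was Alad and Urod (r = 0.76, Spearman's rho = 0.76), and the most opposed was Cpox and Ppox (r = -0.83, rho = -0.79). Group means were not removed, so differences with FAC enter these values. Pairs of other genes were not compared, and whether the genes vary together was not tested.

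The genes closest to Alas1 in log2 CPM over the 8 libraries were Arf2, Junb and Gm10774 (r = 0.96, 0.96 and 0.95; rho = 0.90, 0.79 and 0.86), of 19 tested genes with r of at least 0.9. Those closest to Cpox were Tmem250-ps, Icos and Atp2a2 (r = 0.99, 0.98 and 0.98; rho = 0.90, 0.95 and 0.88), of 70 such genes. Both r and rho describe 8 libraries from 4 mice, and at that number high values turn up when 13378 genes are ranked.

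Levels between genes were compared in TPM, which is scaled for transcript length. Over all 8 libraries Alad stood highest at 57.3 ± 2.77 TPM, followed by Alas1 at 47.1 ± 3.72, Urod at 34.7 ± 2.18, Cpox at 24.5 ± 1.89, Ppox at 16.6 ± 1.59, Uros at 12.1 ± 1.39 and Fech at 11.8 ± 1.08 TPM (SD, n = 8). Each of the first 5 was above the next in all 8 libraries with no overlap of ranges. Uros and Fech could not be separated, since Uros was the higher in 6 of 8 libraries and their ranges overlapped. The highest mean was 4.85 times the lowest, and the median over all tested genes was 13.5 TPM. The order was the same with FAC and in controls but for the last pair, with Uros at 12.4 ± 0.987 and Fech at 11.8 ± 0.964 TPM with FAC, and 11.8 ± 1.82 and 11.9 ± 1.34 TPM in controls (SD, n = 4 each). Thus the enzymes that open the path had more transcript per length than Fech, which ends it, in both groups.

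**Figure D4:**
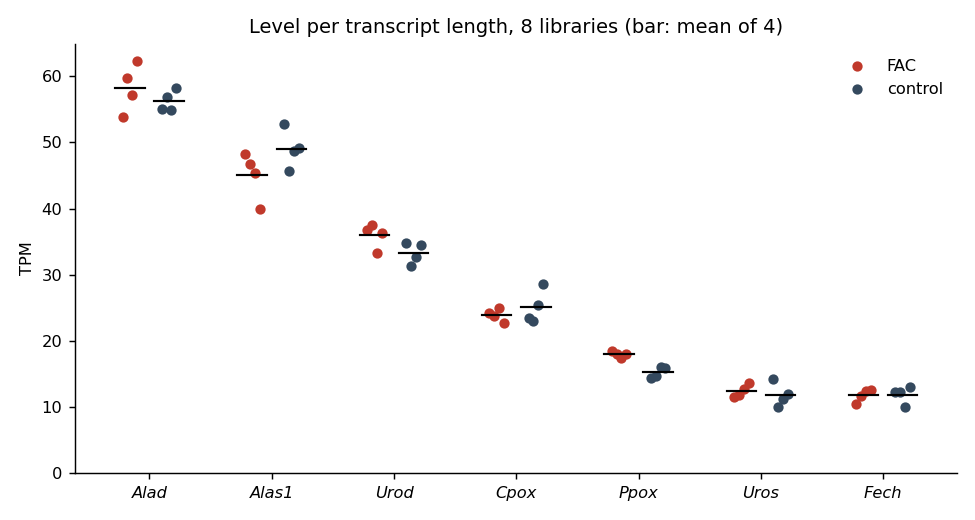
The y axis is TPM from 0, and the genes are ordered by their mean over 8 libraries. Red points are FAC libraries, placed left of the dark control libraries, and short bars are the means of 4. Alad lies between 53.9 and 62.3 TPM and Fech between 9.92 and 13.0 TPM, and the ranges of neighbouring genes do not overlap except for Uros and Fech.

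Lists of genes around the pathway are read against the 3.27% of all tested genes called. Calls numbered 2 of 20 in haem synthesis support and 2 of 11 in haem use, a larger share than that. The lists were chosen with earlier results of these data known, and no list was tested as a set. Of 20 genes that support haem synthesis, all tested, 2 were higher, 0 lower and 18 did not pass, with a median log2 change of -0.04; 4 had an unadjusted edgeR p under 0.05, against 18.4% of all tested genes. The 2 encode the mitoferrins, carriers that bring iron into mitochondria. Slc25a28 (mitoferrin-2) averaged 31.2 ± 0.955 CPM with FAC and 25.3 ± 2.99 CPM in controls (log2 change 0.31, SE 0.07, edgeR adjusted p = 0.043, higher in 4 of 4 mice). Slc25a37 (mitoferrin-1) averaged 86.1 ± 7.36 CPM with FAC and 72.8 ± 3.67 CPM in controls (0.24, SE 0.06, edgeR adjusted p = 0.0482, higher in 3 of 4 mice). Leaving out 1 library at a time ended the Slc25a28 call in 6 of 8 fits, all but those without FAC 1 and without control 4, and reached 0.154. That of Slc25a37 also ended in 6 of 8, all but those without FAC 4 and without control 4, and reached 0.176.

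Of the 11 tested genes listed under haem use, 1 was higher, 1 lower and 9 did not pass (median -0.05). An unadjusted edgeR p under 0.05 was found in 5, against 18.4% of all tested genes. Of these 5, Hccs, Cycs, Cyc1 and Cox10 were lower and Cyb5b was higher. Hccs, whose enzyme attaches haem to cytochrome c, averaged 67.4 ± 3.61 CPM with FAC and 77.7 ± 2.75 CPM in controls (-0.21, SE 0.05, edgeR adjusted p = 0.0366, lower in 4 of 4 mice). Cyb5b, a cytochrome b5 of the outer mitochondrial membrane, averaged 236 ± 3.18 CPM with FAC and 214 ± 5.47 CPM in controls (0.14, SE 0.03, edgeR adjusted p = 0.0337, higher in 4 of 4 mice). With the replicate block the cytochrome c gene Cycs was also lower (-0.19, edgeR adjusted p = 0.0118, against 0.0785 on the group alone). The Hccs call ended in all fits that left out a library but those without FAC 1 and without control 4 (up to 0.135), and that of Cyb5b in all but the fit without FAC 1 (up to 0.136). With the length offset 0 of these 4 list genes passed in edgeR: Slc25a28, Slc25a37, Hccs and Cyb5b. Their adjusted p were 0.301, 0.195, 0.0949 and 0.0838 in that order. With the mouse as a replicate block all 4 passed, at edgeR adjusted p of 0.012, 0.034, 0.02 and 0.0139 in the same order. That fit called 6.87% of all tested genes.

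Genes of haem breakdown and movement (8 tested of 9 listed, median 0.01) had 0 calls in edgeR, 1 of them with an unadjusted p under 0.05, against 18.4% of all tested genes, and 0 with the replicate block, against 6.87%. That gene was Slc48a1, a haem transporter of the lysosome, at 27.8 ± 0.571 CPM with FAC and 25.3 ± 0.919 CPM in controls (0.14, SE 0.05, edgeR adjusted p = 0.196, higher in 4 of 4 mice). Regulators of Alas1 transcription (7 tested of 8 listed, median 0.02) also had 0 calls in edgeR, 1 with an unadjusted p under 0.05, and 0 with the replicate block. That 1 was Nrf1, whose letters stand in the Alas1 excerpt above, at 50.6 ± 1.12 CPM with FAC and 56.6 ± 4.16 CPM in controls (log2 change -0.16, SE 0.05, edgeR adjusted p = 0.134). Ppargc1a, the coactivator that induces Alas1 in the fasted liver, had 0 counts throughout, a level that 3 counts would put at no more than 0.118 CPM in either group.

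**Figure D5:**
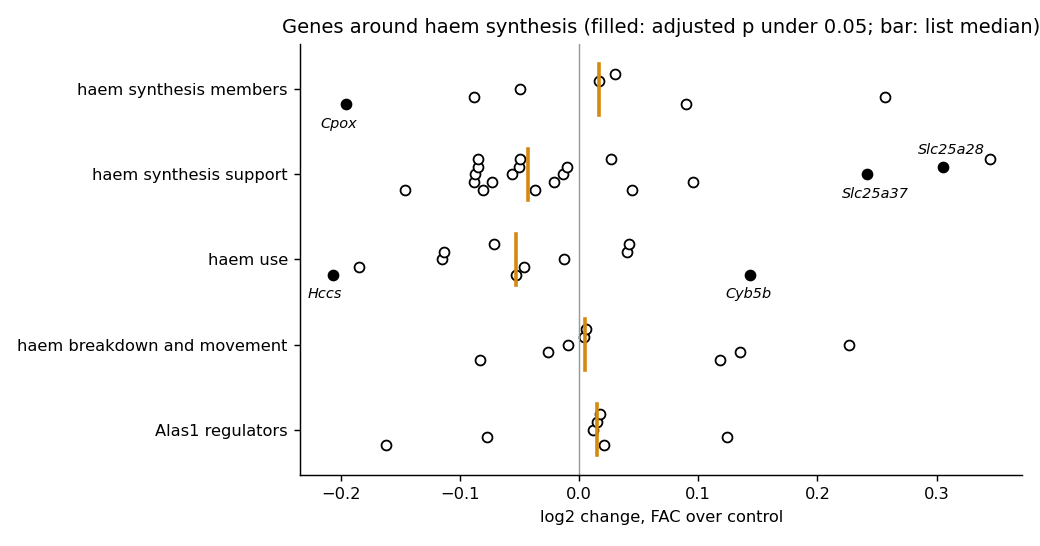
Each point is a tested gene, the x axis is its log2 change, FAC over control, and each row is a gene list; filled points have an edgeR adjusted p under 0.05 and orange bars mark list medians. Named genes are those called: Cpox and Hccs lie left of 0, and Cyb5b, Slc25a37 and Slc25a28 right of it, while the medians lie between -0.05 and 0.02.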

How the data were processed

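Per the file headers, the authors deposited RSEM expected counts, TPM values and effective lengths per gene for each library, and a table with a normalised signal whose scaling is not stated in those headers. RSEM 1.3.1, STAR 2.7.6a, DESeq2 1.26.0, R 3.6.3 and the build GRCm39 are named in the submitters' processing notes, without their roles. Expected counts were rounded, filtered with edgeR's filterByExpr (minimum count 10, minimum total 15; 13378 genes kept, with 99.9% of counts), scaled by TMM and fitted on the group alone with edgeR 4.0.16 in R 4.3.3; limma 3.58.1 and DESeq2 1.42.0 served as alternatives. An SE is the log2 change over the square root of F. All 7 genes passed the filter. In simulated data on 13186 genes, 45.2% of 62 genes changed by 0.25 on the log2 scale were called, and 97.1% of 68 changed by 0.5. The changed genes were drawn only from those averaging at least 10 CPM, and the simulated counts were not paired by mouse. Mouse numbers name cultures of 1 animal, and so pair them. Deviations from the group mean correlated at 0.137, 0.0165, 0.0647 and 0.139 across tested genes within mice 1 to 4. Between cultures of different mice the highest value was 0.0331, which mouse 2 did not exceed. No pair of replicates agreed within sampling noise (chi-square per degree of freedom 5.23 to 16.9). Depth was 25410299 to 37350654 counts per library, and floors (3 counts) and the counting errors cover counting error only, whereas the 95% intervals of log2 changes include the spread between cultures. Symbols came from the deposited table and GENCODE M21 (GRCm38), from which no gene coordinates are printed. All 7 genes are described. Other genes are named if called in a listed group, if Tfrc or if 1 of the 3 closest in pattern to Alas1 or Cpox. Genes outside this rule were added after their values were seen. They are Cycs, Cyc1, Cox10, Slc48a1, Nrf1, Ppargc1a, Flvcr2, the overlapping genes, Alas2 and the marker genes named beside the libraries. Members and lists were chosen with earlier results of these data known. Alternatives were other size factors, no filter, other tools and units, the length offset, the replicate block and leaving out each library.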

Additional observations from a re-analysis of the deposited data

How the results depend on the processing

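The 438 genes called in all became 736 without a filter on low counts, 797 with DESeq2, 144 and 138 with limma on log2(TPM + 1) and log2(TPM + 0.1), 156 with limma on the log2 deposited signal and 187 with the length offset, and ranged from 147 to 549 when a library was left out. The share of calls that were higher was 66.4%, and was 59.2% with the replicate block, 61.1% without the filter, 77.8% and 78.3% in the TPM tests, and 54.4% (without FAC 3) to 73.8% (without FAC 4) when a library was left out. Of the 7 genes, the number called was 2 with DESeq2 and 0 with both TPM tests, with the deposited signal and with the length offset, and 0 to 1 without a library. With the replicate block 919 genes were called in all and 2 of the 7, Cpox and Ppox, and the block changed no other call among the 7. The 4 calls in the lists around the pathway became 6 with DESeq2, 5 with the replicate block, 0 with both TPM tests, the deposited signal and the length offset, and 0 to 4 without a library. Alad turned sign without FAC 2, FAC 4 or control 3 and Urod without FAC 2, within ranges of -0.0177 to 0.0522 and -0.00458 to 0.0638. The other 5 genes kept their direction in all 16 alternatives, and the rank of each level was the same in all settings tried. Cpox was called in 5 of 16 alternatives, with log2 changes of -0.22 to -0.07, and Ppox in 3 of 16, with 0.19 to 0.29. Besides leaving out a library, the Cpox call ended with TPM and the length offset, which take account of transcript length. It also ended with the deposited signal, whose log2 changes lay close to those with the length offset. These were -0.12 and -0.11 for Cpox, 0.19 and 0.20 for Ppox, and -0.17 and -0.16 for Alas1. The deposited signal may therefore not be a separate kind of measure. Why the call ended was not tested.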

Other observations

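Flvcr2, a member of a family of haem and choline transporters, was too low to be tested and is given here because its values stood apart after they were seen. It had 0.159, 0.153, 0.654 and 0.352 CPM in FAC mice 1 to 4, against 0.0396, 0.0544, 0.033 and 0.141 CPM in control mice 1 to 4, from 46 counts in all. The groups did not overlap, which also held for 11.1% of all tested genes, and most values lay near the level of a few counts. The nearest values were 0.153 CPM in FAC 2 and 0.141 CPM in control 4, where 1 count is 0.0309 and 0.0351 CPM. Uros was annotated with 10 transcripts, and its effective length was 1444, 1384, 1280 and 1328 bases in FAC mice 1 to 4, against 1132, 1469, 1369 and 1311 bases in control mice 1 to 4. Its TPM was 12.4 ± 0.987 with FAC and 11.8 ± 1.82 in controls, and its CPM 11.8 ± 0.682 with FAC and 11.1 ± 0.356 in controls (SD, n = 4 each).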
